A study of Mus musculus with 12 samples.

Results

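A set of 67 protein-coding genes went down in transcript level between Day 3 and Week 4 in cardiac fibroblasts that had received control retrovirus, and up over the same time in cells that had received retroviruses carrying Sox17 and Erg. They were chosen by their measured levels, out of 21793 protein-coding genes in the table. The level used for the choice was L, the log2 of 1 plus the CPM, which is the count of a gene per 1000000 counts of its library. A gene was a member if its mean L was lower at Week 4 than at Day 3 by at least 0.7 in control, higher at Week 4 than at Day 3 by at least 0.7 with Sox17-Erg, and if the 2 Week 4 libraries did not overlap the 2 Day 3 libraries in either arm. All Day 3 and Week 4 levels of the members are therefore given as a description, with no test. The Day 7 libraries were not used in the choice, and Sox17-Erg against control at Day 7 is the 1 contrast that was tested. Day 7 lies between the 2 times used, so that contrast is not free of the choice.

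The libraries were bulk RNA sequencing of cultured mouse heart cells, in 6 groups of 2: control Day 3, control Day 7, control Week 4, Sox17-Erg Day 3, Sox17-Erg Day 7 and Sox17-Erg Week 4. The fibroblasts were isolated from pooled hearts of mice 0 to 3 days old by magnetic selection for THY1, a surface protein of fibroblasts, and infected with pMX retroviruses, which enter dividing cells and express their insert from a viral promoter. For the characterization of the induced cells, to which these libraries belong, the study describes removing PECAM1-positive cells at isolation, a step its isolation protocol words as conditional. Cells of all groups were cultured in EGM2, an endothelial growth medium. The labels call the control cells fibroblasts and the Sox17-Erg cells iEC, for induced endothelial cells. Sox17 is a transcription factor of the SOX family that is used by arterial endothelium, and Erg is an ETS-family factor that maintains endothelial identity. The study used C57BL/6J mice or mice carrying Tcf21-CreERT2 and a tdTomato reporter, and which of them gave these libraries was not given. No sorting of infected cells was stated for them, so each library may mix infected with uninfected cells. The sources do not say whether the 2 replicates of a group came from separate isolations, and p-values then measure only the spread between these libraries.

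Library totals ran from 19011635 to 41240449 counts. Sox17 lay between 411 and 1012 CPM in the 6 Sox17-Erg libraries and at or below 0.4004 CPM in the 6 control libraries, and Erg between 17.1 and 63.6 against at most 2.18 CPM, so both sat where the labels place them. Counts from the viral inserts and from the endogenous genes cannot be told apart. The fibroblast transcript Col1a1, a chain of type I collagen, was abundant in every library, between 3602 and 18321 CPM. Its arms overlapped at Day 3, but other fibroblast genes were lower with Sox17-Erg there. Tcf21 measured 15.6 and 44.4 CPM against 182 and 246 in control, and Pdgfra 118 and 279 against 552 and 728. The endothelial receptor genes Kdr, Tie1 and Emcn were each higher in every Sox17-Erg library than in every control library. With Sox17-Erg, however, Kdr went down from 110 and 40.3 CPM at Day 3 to 35.2 and 27.7 at Week 4. Emcn went down from 70.4 and 64.6 to 28.4 and 28.9 there, and Tie1 overlapped between those times. Cldn5, the main claudin of endothelial tight junctions, had at most 10 counts in any library. Other endothelial markers did not part the arms: Egfl7 measured up to 6.32 CPM in control and 3.23 to 5.62 with Sox17-Erg, Esam overlapped as well, and Flt1 at Week 4 measured 228 and 368 CPM in control and 176 and 228 with Sox17-Erg. In bulk libraries, fewer cells of a type and less RNA per cell cannot be told apart, and this holds for every difference below.

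Endothelial cells line blood vessels and hold together through junction proteins such as VE-cadherin and PECAM1. They sit on a basement membrane of laminins and collagen XVIII, read shear stress and lipids through receptors such as S1PR1, and take arterial character under Notch signaling. Cultured cardiac fibroblasts instead make interstitial collagen and fibronectin and, with time and stiffness, contractile proteins. ETS factors bind DNA around the core GGAA. SOX factors bind around the core ACAAT. RBPJ, the DNA-binding partner of Notch, binds around GTGGGAA.

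The sequence before the transcript start is shown for 3 members that differ in their count of these cores. Myct1 encodes a membrane protein of endothelial and blood-forming cells, Mfsd2a a lipid transporter of brain endothelium, and Nrarp a small inhibitor within the Notch pathway. Each run is the 250 bases before the start, 5′ to 3′ on the gene's own strand, from RefSeq on GRCm38.p6. Capitals mark an ETS core, a SOX core or an RBPJ motif read on either strand. The positions are chr10:5593478-5593727 on the plus strand for Myct1, chr4:122961189-122961438 on the minus strand for Mfsd2a and chr2:25180508-25180757 on the plus strand for Nrarp.
Myct1: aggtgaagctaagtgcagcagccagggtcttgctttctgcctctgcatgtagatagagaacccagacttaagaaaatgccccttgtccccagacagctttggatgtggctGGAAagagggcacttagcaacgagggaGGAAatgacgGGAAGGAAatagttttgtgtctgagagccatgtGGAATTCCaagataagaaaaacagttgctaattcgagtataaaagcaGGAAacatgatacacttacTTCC
Mfsd2a: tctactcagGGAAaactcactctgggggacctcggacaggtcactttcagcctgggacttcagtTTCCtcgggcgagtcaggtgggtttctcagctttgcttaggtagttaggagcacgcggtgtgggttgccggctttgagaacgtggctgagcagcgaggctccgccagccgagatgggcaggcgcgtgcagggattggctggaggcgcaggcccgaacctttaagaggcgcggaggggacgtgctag
Nrarp: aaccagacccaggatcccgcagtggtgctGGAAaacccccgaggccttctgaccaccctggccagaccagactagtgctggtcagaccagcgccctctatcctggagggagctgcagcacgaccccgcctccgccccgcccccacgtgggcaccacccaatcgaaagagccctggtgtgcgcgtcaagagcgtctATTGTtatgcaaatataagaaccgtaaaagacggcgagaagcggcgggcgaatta
The Myct1 run held 8 ETS cores, 2 of them back to back on opposite strands, and no SOX core. The Mfsd2a run held 2 ETS cores and no SOX core. The Nrarp run held 1 of each. None of the 3 held an RBPJ motif.

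RefSeq windows of 250 bases before to 50 after the start were found for 52 of the 67 members, 76 windows in all. GGAA was present in 93.4% of these and in 96.0% of all 32851 windows. The longer ETS motif GGAAGT, which contains that core, was in 17.1% against 23.8%, the SOX core in 18.4% against 31.02% and the RBPJ motif in 6.58% against 6.38%. All motifs were searched on both strands. Windows of the protein-coding genes tested at Day 7 held GGAA in 95.5%, the longer ETS motif in 26.7%, the SOX core in 21.4% and the RBPJ motif in 6.11%. The member windows had a median GC content of 61.7% and a median of 16.5 CpG sites. The windows of protein-coding genes tested had 60.3% and 19, and all windows 52.7% and 7. Both ETS motifs and the SOX core were each in a smaller share of the member windows than of either larger set. For the SOX core that gap was narrower against the genes tested, whose GC content lay closer to that of the members. The gaps were not tested, and no factor binding was measured here.

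The members were a small corner of the 2 movements that chose them. In control, 1397 protein-coding genes went down by the rule (6.41%), and with Sox17-Erg 1934 went up (8.87%). The 67 members made 4.80% of the first and 3.46% of the second, while 750 genes (53.7% of those that went down in control) also went down with Sox17-Erg by the same sizes. The members' change in L in control ran from -2.45 to -0.70 with a median of -0.99, and their change with Sox17-Erg from 0.71 to 3.61 with a median of 1.25. The control change was at most -2 for 3 members, Mfsd2a, Pgf and Cd9, and the Sox17-Erg change was at least 2 for 14, with Itgb4 and Pde1b at the top. At the edge of the control threshold Fstl3 lay inside at -0.70 and Tspan18 outside at -0.68, and at the edge of the Sox17-Erg threshold Atp8b1 lay inside at 0.71 and Rassf4 outside at 0.67. Leaving out any 1 of the 8 libraries used removed 4 to 14 of the 67, the 14 without control Day 3 replicate 1, among them Itgb4, Lama5, Magix, Icam2 and Met. Nuak1, Pde1b, Mustn1, Osbpl3, Ptprz1 and Tm6sf1 were among the 11 lost without control Week 4 replicate 1.

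**Figure D1:**
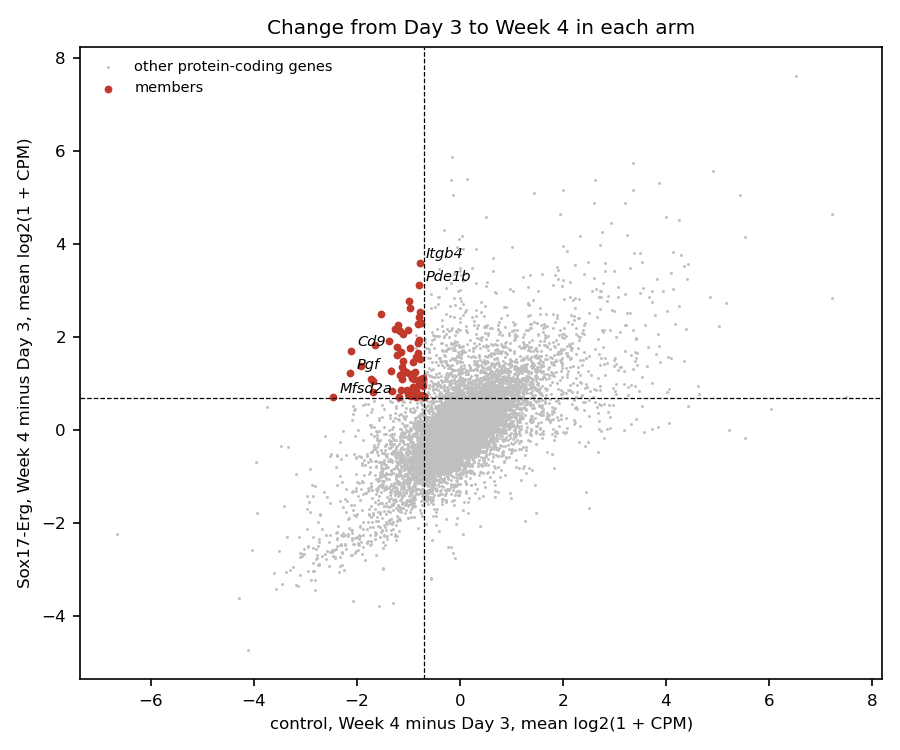
Change in mean log2(1 + CPM) from Day 3 to Week 4 in control (horizontal axis) and with Sox17-Erg (vertical axis) for each protein-coding gene with a count, with the 67 members in red and dashed lines at -0.7 and 0.7. The members fill the upper left corner by choice, with Mfsd2a at -2.45 farthest to the left and Itgb4 at 3.61 highest; genes beyond both lines in grey had overlapping libraries.

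The members did not all start from the same place. At Day 3 both Sox17-Erg libraries lay above both control libraries for 33 members (28.0% of the 19155 protein-coding genes with a count did so), below them for 16 (26.2% of all), and overlapped them for 18. At Day 7 the counts were 54 above (23.6% of all), 2 below (26.0% of all) and 11 overlapping. At Week 4 all 67 lay above and 0 below, against 27.8% and 24.6% of all genes. The Week 4 count was fixed in part by the choice of members and is read as nothing more. The Day 7 count, from a time between the 2 used, is not free of the choice. The 33 members that began higher with Sox17-Erg held all 7 genes of endothelial surface and junction. The 16 that began lower were of mixed roles: Abcg1, Ablim1, Adamtsl3, Adssl1, Anxa8, Bean1, Cd9, Fn1, Kank4, Lgals3, Lmod1, Mustn1, Ramp1, Scx, Sncg and Sync.

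**Figure D2:**
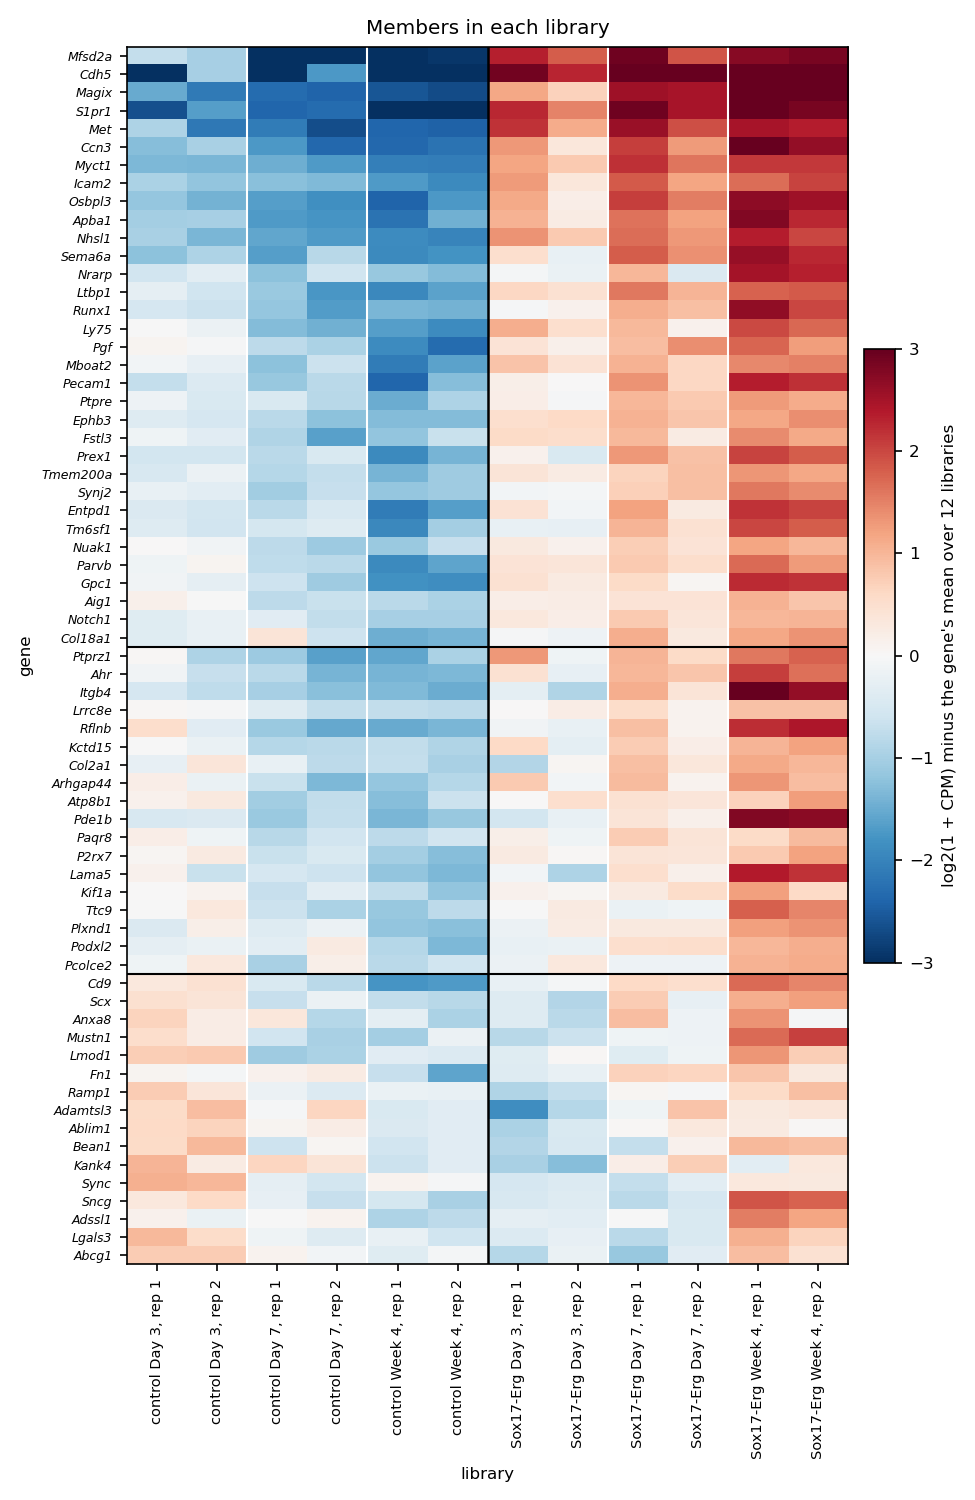
Level of the 67 members (rows) in the 12 libraries (columns), as log2(1 + CPM) minus the gene's mean over the libraries, with colours clipped at -3 and 3; black lines part the 33 members that began above control at Day 3, the 18 that overlapped it and the 16 that began below it. In the bottom block the Day 3 control columns are redder than the Day 3 Sox17-Erg columns, and at Week 4 the order is turned.

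All 67 members passed the filter on low counts at Day 7. edgeR's quasi-likelihood test over the 12 libraries, with Benjamini-Hochberg adjustment over 15506 genes, called 43 members higher with Sox17-Erg (64.2%, where 9.48% of all genes tested were called higher). It called 0 lower (7.93% of all genes), and 0 were lower at an unadjusted p under 0.05 or by DESeq2. The median log2 fold change of the members was 1.64, next to 0.01 over all genes tested, and 61 of the 67 fold changes were positive. The spread in that fit includes the libraries that chose the members, so the 4 Day 7 libraries were also fitted alone. There 36 members were higher (53.7%, against 4.18% of all genes) and 0 lower (3.29% of all), with a median of 1.62, and 35 were called in both fits. Members with few control reads did not carry the count: 63 had at least 10 counts in both control Day 7 libraries, and 40 of these were called. Day 7 lies between the 2 times that chose the members, and all 67 lay above control at Week 4. The shares called at Day 7 therefore follow in part from the choice, and the shares over all genes do not correct for it.

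The Day 7 calls were also counted by Day 3 position, under the same limit from the choice of members. Of the 33 members above control at Day 3, 30 were called higher at Day 7, with a median log2 fold change of 2.23 (23.9% of all tested genes with that Day 3 position were called). Of the 18 that overlapped at Day 3, 12 were called, with a median of 1.43 (3.45% of all such genes). Of the 16 below control at Day 3, Cd9 was the 1 called in that fit (0.683% of all such genes were), while DESeq2 added Lmod1, no filter on low counts Lmod1 and Mustn1, and leaving out 1 library Lmod1, Mustn1 or Scx. The 16 had a median log2 fold change of 0.07 and ran from -0.87 for Abcg1 to 1.22 for Cd9, so they lay on both sides of control at Day 7.

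**Figure D3:**
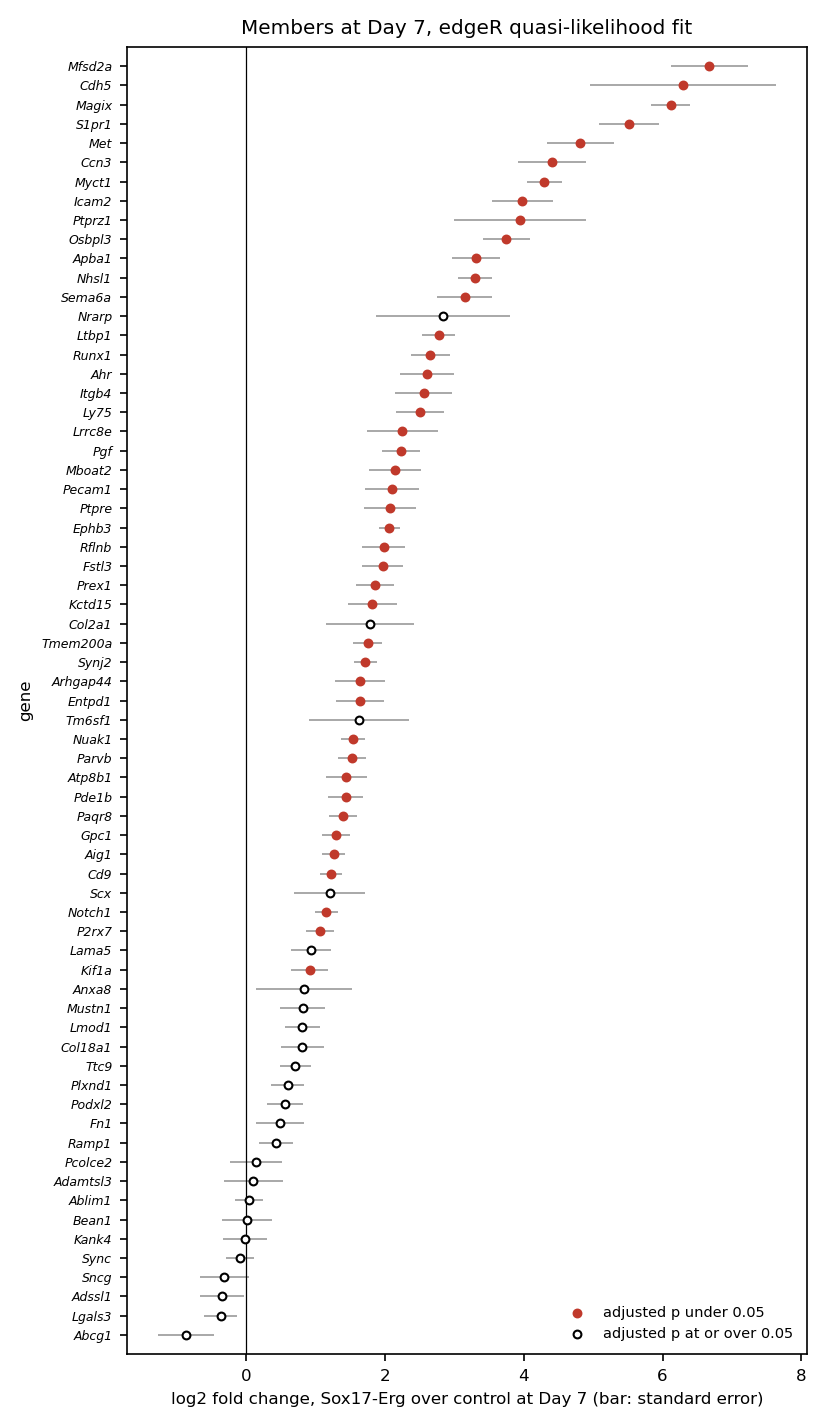
Day 7 log2 fold change of Sox17-Erg over control for each member, with its standard error as a bar, from the edgeR quasi-likelihood fit of 12 libraries; filled points had an adjusted p under 0.05. The 43 called members all lie to the right of 0, and the 6 negative values, down to -0.87 for Abcg1, were not called.

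Members were grouped by role after values were seen, so the counts of calls by role are a description and were not tested against each other. The 7 genes of endothelial surface and junction were all called higher at Day 7 (64.2% of all members and 9.48% of all genes tested were). In each of them both Sox17-Erg libraries exceeded both control libraries at every time. Pecam1, an adhesion protein of endothelial junctions (chr11:106654217-106750628), measured 12.7 and 16.1 CPM at Day 3, then 9.3 and 11.96 at Day 7 and lastly 3.35 and 8.33 at Week 4 in control. With Sox17-Erg it measured 24.5 and 21.9, then 56.6 and 33.6, and by Week 4 115 and 102 CPM. Its Day 7 log2 fold change was 2.10 (SE 0.39, adjusted p = 0.00689), and without Sox17-Erg Day 7 replicate 1 the adjusted p was 0.0517. Control Pecam1 thus lost most of its level by Week 4 but stayed detectable, while the Sox17-Erg level climbed at each step.

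Cdh5, which encodes VE-cadherin, the adhesive protein of endothelial adherens junctions (chr8:104101625-104144511), was already at 216 and 141 CPM with Sox17-Erg at Day 3, and reached 394 and 248 at Day 7 and 484 and 425 at Week 4. Its control values were 0.923 and 13.7 at Day 3, then 0.239 and 7.81 at Day 7 and lastly 0.242 and 0.5804 at Week 4. The control decline of Cdh5 was therefore the loss of a signal held mainly by replicate 2 at Day 3, and Cdh5 was no member without that library. Its Day 7 log2 fold change was 6.29 (SE 1.34, adjusted p = 0.0128), and in the Day 7 libraries alone the adjusted p was 0.0599. The log2 fold change was 10.43 without control Day 7 replicate 2 and 5.30 without control Day 7 replicate 1.

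S1pr1, the receptor through which endothelium senses sphingosine 1-phosphate, went from 1.99 and 4.89 CPM at Day 3 to 1.19 and 1.24 at Week 4 in control and from 87.4 and 50.8 to 159 and 134 with Sox17-Erg. Like Cdh5, it was no member without control Day 3 replicate 2. At Day 7 it measured 2.55 and 2.76 in control and 139.8 and 101 with Sox17-Erg (log2 fold change 5.52, SE 0.44, adjusted p = 0.000126). Icam2, an adhesion molecule that leukocytes bind, had 1.18 and 0.845 CPM at Day 3 and 0.291 and 0.124 at Week 4 in control, against 9.26 and 4.35 and then 12.4 and 16.1 with Sox17-Erg. For both genes the highest control library lay below the lowest Sox17-Erg library.

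Myct1, whose promoter is printed above, stood at 1.66 and 1.65 CPM in control at Day 3 and 0.6304 and 0.622 at Week 4. With Sox17-Erg it stood at 14.5 and 10.7, then 29.9 and 19.8, and by Week 4 28.6 and 28.5 CPM, and replicate 1 at Day 7 already lay at the Week 4 level (Day 7 log2 fold change 4.30, SE 0.25, adjusted p = 4.33e-05). Mfsd2a, the lipid transporter, had the widest control change in L of all members (in CPM, Cdh5 and Nrarp declined by a larger fold), from 8.75 and 7.12 CPM at Day 3 to 0.758 and 1.01 at Day 7 and 0.242 and 1.12 at Week 4. With Sox17-Erg it measured 80 and 55.4, then 121 and 58.2, and by Week 4 106 and 115 CPM, a change that only just passed the rule and did not without Sox17-Erg Day 3 replicate 2 or Week 4 replicate 2, and its Day 7 log2 fold change of 6.67 (SE 0.56, adjusted p = 0.000156) was the highest among the members. Entpd1, the ectonucleotidase CD39 that breaks down extracellular ATP on endothelium, went from 6.13 and 5.61 to 1.26 and 2.07 CPM in control and from 12.05 and 8.21 to 42.9 and 38.7 with Sox17-Erg. Its Day 7 call (log2 fold change 1.64, SE 0.35, adjusted p = 0.0126) was lost without control Day 7 replicate 1 and without Sox17-Erg Day 7 replicate 1, with adjusted p of 0.0751 and 0.0987, and in the Day 7 libraries alone, at 0.0793.

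**Figure D4:**
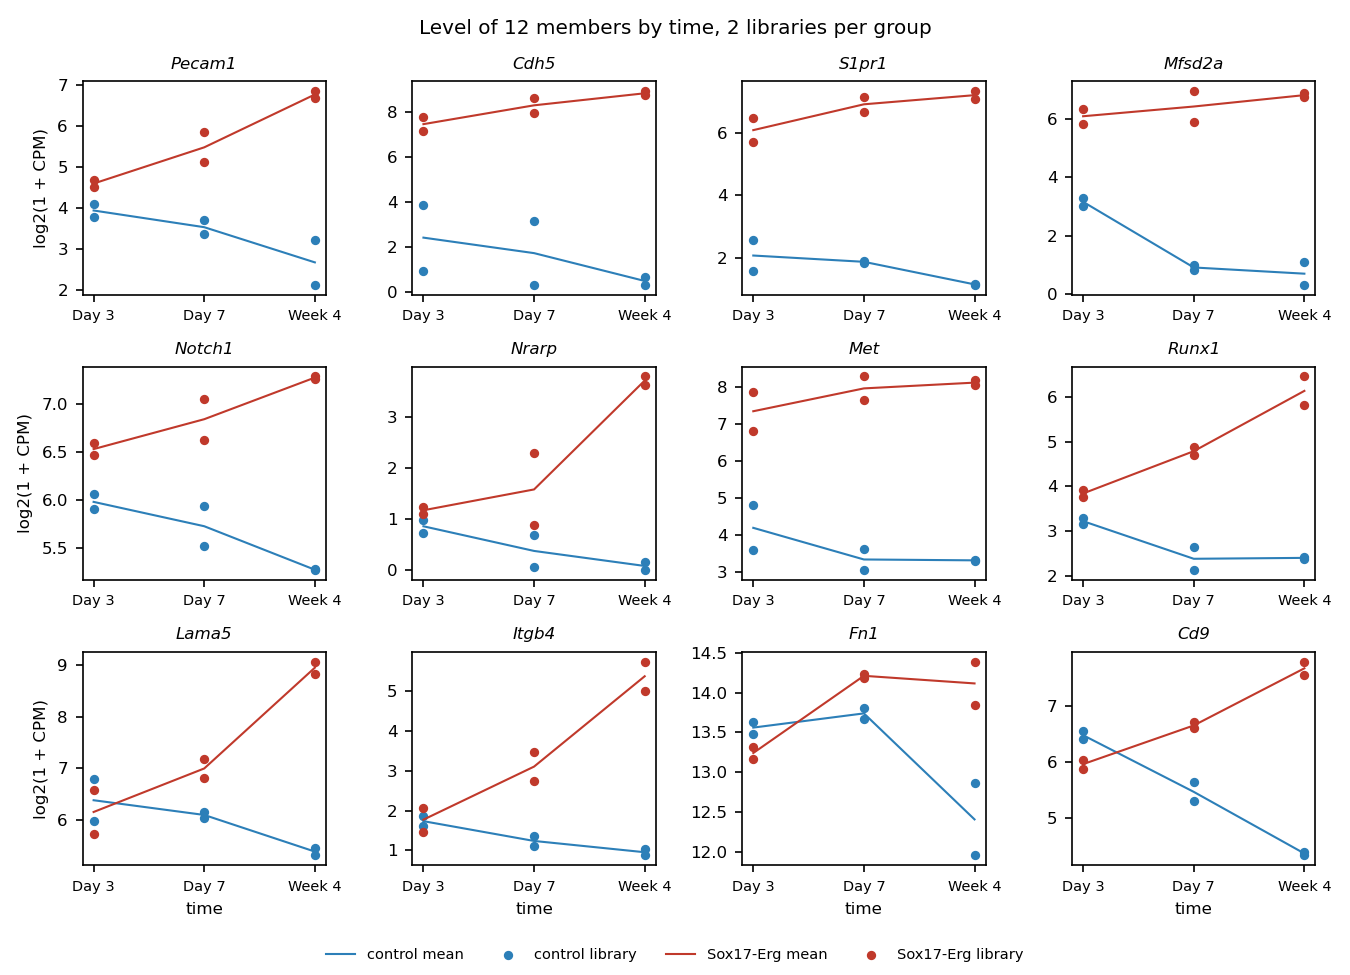
Level of 12 members as log2(1 + CPM) at the 3 times, with control in blue and Sox17-Erg in red, a point for each library and a line through the group means; the vertical axis differs between panels. Pecam1 and Notch1 part gradually, Cdh5, S1pr1, Mfsd2a and Met are apart at Day 3, and the lines of Fn1, Lama5 and Cd9 cross.

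Among Notch pathway and guidance genes, 3 of 5 were called higher at Day 7 (64.2% of all members and 9.48% of all genes tested were). Notch1, a Notch receptor of arterial endothelium, measured 58.9 and 65.8 CPM at Day 3, then 60.2 and 45.01 at Day 7 and lastly 37.7 and 37.9 at Week 4 in control and 95.7 and 87.4, then 132 and 97.9, and by Week 4 152 and 155 with Sox17-Erg (Day 7 log2 fold change 1.15, SE 0.17, adjusted p = 0.00212). The arms diverged slowly, and the control change sat at the threshold, so that Notch1 dropped out without control Day 3 replicate 2, control Week 4 replicate 1 or Sox17-Erg Day 3 replicate 2. Nrarp had 0.664 and 0.979 CPM at Day 3 and 0.121 and 0 at Week 4 in control, and 1.37 and 1.15, then 3.88 and 0.835, and by Week 4 12.9 and 11.4 with Sox17-Erg. It was no member without control Day 3 replicate 2 or control Week 4 replicate 2. The Sox17-Erg Day 7 replicates lay far apart, and its Day 7 log2 fold change was 2.84 (SE 0.97, adjusted p = 0.0746), which missed the threshold and passed it by DESeq2, with no filter on low counts and without control Day 7 replicate 2 or Sox17-Erg Day 7 replicate 2. Exons of Notch1 overlap 1482 bases and those of Nrarp 2051 bases of genes on the other strand. Such overlap was found for 21 of the 67 members, among them Fstl3 (1157 bases) and Gpc1 (977). The kit keeps strand, but whether counting used it was not given in the sources used here.

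Of the 24 Notch pathway genes listed, 2 were members, 3 went down in control and 9 went up with Sox17-Erg by the rule, and 11 of 21 tested were higher and 1 lower at Day 7. The ligand Dll4, no member, measured 1.63 and 0.862, then 16.7 and 1.36, and by Week 4 81.4 and 103 CPM with Sox17-Erg, and at most 0.222 in control. Its Day 7 replicates lay apart in the same order as those of Nrarp. The guidance receptor Ephb3 and the semaphorin Sema6a were called at Day 7 with log2 fold changes of 2.06 and 3.14. Plxnd1, a semaphorin receptor of endothelium, had 0.59 and was not called over the 12 libraries with the filter on low counts (adjusted p = 0.118).

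Growth factors, their receptors and binding proteins gave 9 calls among 10 members, where 64.2% of all members and 9.48% of all genes tested were called higher. Pgf, placental growth factor, a VEGF-family ligand that binds FLT1, measured 13.3 and 12.1 CPM at Day 3, then 6.75 and 5.94 at Day 7 and lastly 2.64 and 1.7 at Week 4 in control, and 16.8 and 13.8, then 24.4 and 34.5, and by Week 4 43.6 and 31.2 with Sox17-Erg. The arms were close at Day 3 and wide apart at Week 4, and the Day 7 log2 fold change was 2.23 (SE 0.27, adjusted p = 0.000925). Met, the receptor of hepatocyte growth factor, was far higher with Sox17-Erg from the start, at 235 and 112 CPM against 26.8 and 10.9 in control at Day 3, and at Week 4 stood at 291 and 266 against 8.996 and 8.79. Its Day 7 log2 fold change was 4.82 (SE 0.49, adjusted p = 0.000407), and it was no member without control Day 3 replicate 1, which held the higher control value, or without Sox17-Erg Day 3 replicate 2.

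Ltbp1, which tethers latent TGF-β to the matrix, went from 142 and 111 to 43.8 and 55.7 CPM in control and from 260.2 and 234 to 579.6 and 609 with Sox17-Erg, with a Day 7 log2 fold change of 2.77 (SE 0.24, adjusted p = 0.000164). Fstl3, a binding protein of activins, stood at 116 and 94.8 CPM with Sox17-Erg at Week 4 and 18.2 and 26.5 in control (Day 7 log2 fold change 1.96, SE 0.30, adjusted p = 0.00285), and was no member without any 1 of 4 libraries. Gpc1, a heparan sulfate proteoglycan that presents growth factors, measured 18.9 and 16.6 CPM at Day 3, then 20.6 and 14.1 at Day 7 and lastly 67.6 and 64.2 at Week 4 with Sox17-Erg, so its climb came after Day 7. In control Gpc1 went from 12.6 and 11.2 to 3.13 and 3.03, and its Day 7 log2 fold change was 1.29 (SE 0.20, adjusted p = 0.00337), with an adjusted p of 0.0629 in the Day 7 libraries alone. The matricellular protein gene Ccn3 and the phosphatase gene Ptprz1 had Day 7 log2 fold changes of 4.41 and 3.95. The Ptprz1 call was lost without control Day 7 replicate 2 or Sox17-Erg Day 7 replicate 1, and other calls of this group were lost too, that of Ptpre without control Day 7 replicate 2 and that of P2rx7 without replicate 1 of either arm at Day 7 or in the Day 7 libraries alone. Ramp1, a partner of the calcitonin-like receptor, was the member of this group that was not called (0.42).

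Of 11 members among matrix genes and their receptors, 3 were called higher at Day 7 (64.2% of all members and 9.48% of all genes tested were). Lama5, the laminin chain of mature endothelial basement membrane, measured 109.6 and 62.5 CPM at Day 3 and 43.4 and 39.1 at Week 4 in control. With Sox17-Erg it measured 95.4 and 52.2 at Day 3, then 144 and 112 at Day 7 and lastly 532 and 452 at Week 4. The groups overlapped at Day 3, and the Day 7 log2 fold change of 0.93 (SE 0.29, adjusted p = 0.0575) missed the threshold over 12 libraries. It was called in the Day 7 libraries alone (0.0483), by DESeq2 (0.0136) and with replicate number as a block (0.0101). Itgb4, the integrin chain that binds laminins, went from 3.21 and 1.76 CPM at Day 3 through 10.02 and 5.71 to 52.6 and 31.2 at Week 4 with Sox17-Erg, the widest Sox17-Erg change in L of all members, and from 2.62 and 2.05 to 1.04 and 0.829 in control (Day 7 log2 fold change 2.56, SE 0.41, adjusted p = 0.00368). Both the laminin chain and the laminin receptor made most of their Sox17-Erg change after Day 7.

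Col18a1, the basement membrane collagen that yields endostatin, measured 181 and 88.3 CPM in control at Day 7 and 292 and 168 with Sox17-Erg, and the groups overlapped there (log2 fold change 0.81, SE 0.31, adjusted p = 0.103). It was called by DESeq2 (adjusted p = 0.0478), with no filter on low counts (0.0036), and without control Day 7 replicate 1 or Sox17-Erg Day 7 replicate 2. Fn1, which encodes fibronectin and was the most abundant member, measured 12728 and 11469 CPM at Day 3, then 13073 and 14291 at Day 7 and lastly 7440.0 and 3981 at Week 4 in control. With Sox17-Erg it measured 9221 and 10180.0, then 19321 and 18573, and by Week 4 21426 and 14673 CPM, below control at Day 3 and above it at Day 7 and Week 4, with a Day 7 log2 fold change of 0.48 (SE 0.35, adjusted p = 0.376). It was no member without control Week 4 replicate 2 or Sox17-Erg Week 4 replicate 1. Lgals3, the secreted lectin galectin-3, moved late, at 22.2 and 28.8 CPM with Sox17-Erg at Day 7 and 84.3 and 63.4 at Week 4, while control went from 79.3 and 59.2 at Day 3 to 34.04 and 26.2 at Week 4 (Day 7 log2 fold change -0.37, SE 0.23, adjusted p = 0.312).

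Cd9, a tetraspanin of the cell surface, lay below control at Day 3 and was called higher at Day 7. In control it measured 83.6 and 92.1 CPM at Day 3, then 48.5 and 38.1 at Day 7 and lastly 19.01 and 19.98 at Week 4. With Sox17-Erg it measured 57.7 and 64.6, then 103 and 95.6, and by Week 4 220.0 and 186 CPM (Day 7 log2 fold change 1.22, SE 0.16, adjusted p = 0.0015). Of the 31-base words in its exons, 10.8% also occur in other genes, chiefly the pseudogene Olfr1369-ps1, so part of its count may be shared.

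In the collagen and basement membrane list of 39 genes, 2 were members, 13 went down in control and 10 went up with Sox17-Erg, and at Day 7 7 were higher and 8 lower. In the adhesion and integrin list of 35 genes, 2 were members, 10 went down in control and 12 went up with Sox17-Erg, and of 30 tested at Day 7 12 were higher and 3 lower.

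Of 4 transcription factor and nuclear protein genes, 3 were called higher (64.2% of all members and 9.48% of all genes tested were). Runx1, which drives blood cell emergence from endothelium, measured 8.79 and 7.92 CPM at Day 3 and 4.36 and 4.23 at Week 4 in control, and 12.6 and 14.2, then 28.3 and 24.9, and by Week 4 86.7 and 55.03 with Sox17-Erg (Day 7 log2 fold change 2.65, SE 0.28, adjusted p = 0.000452). Ahr, the aryl hydrocarbon receptor, and Kctd15, a nuclear regulator of the AP-2 factors, were called with 2.60 and 1.81, the Kctd15 call being lost without replicate 1 of either arm at Day 7. Scx, a transcription factor of tendon, stood at 3.03 and 2.76 CPM in control at Day 3 against 1.21 and 0.575 with Sox17-Erg and had turned by Week 4, at 0.727 and 0.622 against 5.15 and 5.76. It was not called at Day 7 over the 12 libraries (adjusted p = 0.143). In the list of 36 endothelial and hemogenic transcription factors Runx1 was the 1 member, 14 went up with Sox17-Erg, and 13 of 32 tested were higher and 1 lower at Day 7.

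Cytoskeletal and muscle genes split, with 6 of 11 called higher (64.2% of all members and 9.48% of all genes tested were). The called genes were the small-GTPase regulators Prex1 (1.85) and Arhgap44 (1.64), the kinase Nuak1 (1.54), the filamin-binding Rflnb (1.98), the cell-migration gene Nhsl1 (3.30) and the axonal motor Kif1a (0.91), each value a Day 7 log2 fold change. Rflnb measured 24.9 and 23.1 CPM at Day 3, then 51.01 and 29.1 at Day 7 and lastly 130.0 and 150.3 at Week 4 with Sox17-Erg and 39.5 and 21, then 11.97 and 8.7, and by Week 4 8.85 and 9.91 in control. Nuak1, among the more abundant members, went from 144 and 133 to 66.2 and 88.3 in control and from 177 and 157 to 326 and 285 with Sox17-Erg (Day 7 adjusted p = 0.000666). The Arhgap44 call was lost without control Day 7 replicate 2, without Sox17-Erg Day 7 replicate 1 and in the Day 7 libraries alone. The Kif1a call was lost without any 1 of the 4 Day 7 libraries and in those libraries alone, with an adjusted p of 0.0714, and with replicate number as a block, at 0.056. It was also lost with DESeq2 size factors (0.0505) and without 1 of several Day 3 or Week 4 libraries.

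None of the muscle genes was called by edgeR over the 12 libraries, but DESeq2 called Lmod1 (adjusted p = 0.0184), and with no filter on low counts edgeR called Lmod1 and Mustn1 (0.00134 and 0.0467). Mustn1 was also called without control Week 4 replicate 1 (0.0426), and Lmod1 when 1 of the Sox17-Erg Week 4 libraries or Sox17-Erg Day 3 replicate 2 was left out. Lmod1, which builds actin filaments in smooth muscle, measured 71.3 and 73.1 CPM at Day 3, then 19.6 and 21.4 at Day 7 and lastly 33.3 and 31.7 at Week 4 in control, and 32.6 and 43.4, then 32.6 and 38.7, and by Week 4 108 and 71.5 with Sox17-Erg (Day 7 log2 fold change 0.81, SE 0.25, adjusted p = 0.0526). Control thus passed through its low at Day 7, where Sox17-Erg lay close to its Day 3 level. Mustn1, a small musculoskeletal nuclear protein, stood at 19.9 and 25.8 CPM with Sox17-Erg at Week 4 against 2.18 and 4.73 in control (Day 7 log2 fold change 0.81, SE 0.32, adjusted p = 0.118). Sync, an intermediate filament protein of muscle, showed the smallest contrast at Week 4, 9.501 and 9.32 against 8.07 and 7.17 CPM, after 16.5 and 15.7 in control at Day 3 (Day 7 log2 fold change -0.09, SE 0.20, adjusted p = 0.793). In the smooth muscle and pericyte list of 19 genes, 8 went down in control and 7 went up with Sox17-Erg, with Lmod1 the 1 gene that did both, and 8 were higher and 1 lower at Day 7.

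Lipid, membrane and metabolic genes gave 8 calls among 12 members, close to the 64.2% of all members (9.48% of all genes tested were called higher). Osbpl3, a lipid transfer protein, measured 63.2 and 32.8 CPM at Day 3 and 188 and 170.1 at Week 4 with Sox17-Erg against 12.1 and 10.01 and 4.51 and 7.84 in control, with a Day 7 log2 fold change of 3.74. Pde1b, a phosphodiesterase of cyclic nucleotides, climbed late, at 4.05 and 5.42 CPM at Day 3, then 8.71 and 7.29 at Day 7 and lastly 50.2 and 47.3 at Week 4 with Sox17-Erg and 4.36 and 4.49, then 2.43 and 3.53, and by Week 4 1.89 and 2.405 in control. Its Day 7 log2 fold change was 1.43 (SE 0.25, adjusted p = 0.00557), with an adjusted p of 0.058 in the Day 7 libraries alone. Atp8b1, a phospholipid flippase at the threshold of the choice, had a Day 7 log2 fold change of 1.44 (SE 0.30, adjusted p = 0.0115), lost without control Day 7 replicate 1 or Sox17-Erg Day 7 replicate 1. The call of Lrrc8e, a subunit of volume-regulated anion channels, was lost without control Day 7 replicate 2 or Sox17-Erg Day 7 replicate 1 and in the Day 7 libraries alone.

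Abcg1, a cholesterol exporter, was the member with the most negative Day 7 value. It measured 9.598 and 9.57 CPM at Day 3, then 5.71 and 4.89 at Day 7 and lastly 3.88 and 4.97 at Week 4 in control and 2.47 and 4.43, then 1.85 and 3.95, and by Week 4 10.8 and 7.604 with Sox17-Erg. The Day 7 log2 fold change was -0.87 (SE 0.40, adjusted p = 0.173), and without Sox17-Erg Day 7 replicate 2 it was -1.53 with an adjusted p of 0.0497. Adssl1, a muscle enzyme of AMP synthesis, stayed level with Sox17-Erg up to Day 7, at 1.68 and 1.601 and 2.199 and 1.36 CPM, and stood at 8.396 and 6.36 at Week 4 (Day 7 log2 fold change -0.36, SE 0.32, adjusted p = 0.478). Control Adssl1 went from 2.51 and 1.82 at Day 3 to 0.703 and 0.871 at Week 4.

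Among the remaining 7 members, 4 were called higher (64.2% of all members and 9.48% of all genes tested were). Magix, a PDZ-domain protein gene (chrX:7673164-7681251), measured 2.07 and 1.02 CPM at Day 3, then 0.758 and 0.6602 at Day 7 and lastly 0.485 and 0.373 at Week 4 in control and 18.4 and 13.2, then 49.8 and 47.9, and by Week 4 88.4 and 88.2 with Sox17-Erg. Its 2 Sox17-Erg replicates nearly coincided at Day 7 and Week 4, and the Day 7 log2 fold change was 6.11 (SE 0.29, adjusted p = 1.88e-05), the lowest adjusted p among the members. Apba1, an adaptor of membrane trafficking, and Ly75, an endocytic receptor of dendritic and epithelial cells, had 3.31 and 2.50. Sncg, gamma-synuclein, was below control at Day 3 and at 1.14 and 1.63 CPM at Day 7 and 12.7 and 11.7 at Week 4 with Sox17-Erg, against 2.16 and 1.32 and 1.58 and 0.912 in control (Day 7 log2 fold change -0.32, SE 0.35, adjusted p = 0.575).

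How far each change had gone by Day 7 was read on L. In control the median member had covered 62.1% of its change, next to 56.5% over all genes that went down in control, 11 members stood at or beyond their Week 4 level, and 5 (Podxl2, Col18a1, Fn1, Adssl1 and Tm6sf1) lay above their Day 3 mean. With Sox17-Erg the median member had covered 40.7% of its change, next to 51.8% over all genes that went up, 4 members stood at or beyond their Week 4 level, and 9 lay below their Day 3 mean. Lgals3 lay farthest below as a share of its change and Gpc1 least, with Lmod1 also close to its Day 3 mean. These shares rest on 2 libraries a time and were not tested.

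Members differed between replicates as well. At Day 7 with Sox17-Erg, 51 of the 67 members (76.1%) were higher in replicate 1 than in replicate 2, next to 47.1% of all genes tested, and at Week 4 46 members (68.7%) were, next to 30.4%. Sox17 measured 984 and 791 CPM in replicates 1 and 2 at Day 7, and Dll4 16.7 and 1.36. Of the fibroblast genes, Tcf21 measured 47.5 and 174 and Pdgfra 195 and 612, but Col1a1 went the other way, at 15992 and 14319. The sum of the 23 fibroblast genes listed was 33177 and 38190 CPM. Control at Day 7 had the same replicate order, with Tcf21 at 356 and 563 CPM and Pdgfra at 1182 and 1841. Without replicate 1 of Sox17-Erg Day 7, 34 members were called higher and the median log2 fold change was 1.35. Calls lost there included Pecam1, Entpd1 and Atp8b1. The part of infected or fibroblast cells in this was not tested.

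Endothelial transcripts were also unevenly held in control. Beside the 0.923 and 13.7 CPM of Cdh5 at Day 3, Tie1 measured 0.9598 and 4.58, Emcn 1.26 and 7.12 and Erg 0.0738 and 2.18 in replicates 1 and 2. At Day 7 the values were 0.239 and 7.81 for Cdh5, 0.1597 and 4.78 for Tie1, 1.197 and 3.65 for Emcn and 0.0798 and 1.32 for Erg. At Week 4 all 4 genes were at or below 1.33 CPM in both control libraries. Kdr and Tek did not share the decline, at 4.06 and 2.71 and 4.02 and 3.51 CPM at Day 3 and 3.61 and 2.69 and 6.26 and 6.18 at Week 4. Summed over the 40 endothelial core genes that were no members, control measured 861 and 868 CPM at Day 3 and 1639 and 2329 at Week 4. Flt1, an abundant gene, went from 122 and 83.6 CPM to 228 and 368, which is only a part of that rise. Which genes carried the rest was not examined. By the rule, 13 of the 45 listed genes went down in control. Without control Day 3 replicate 2, 7 of the 67 genes were no members: Cdh5, S1pr1, Notch1, Nrarp, Sema6a, Col2a1 and Pcolce2.

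**Figure D5:**
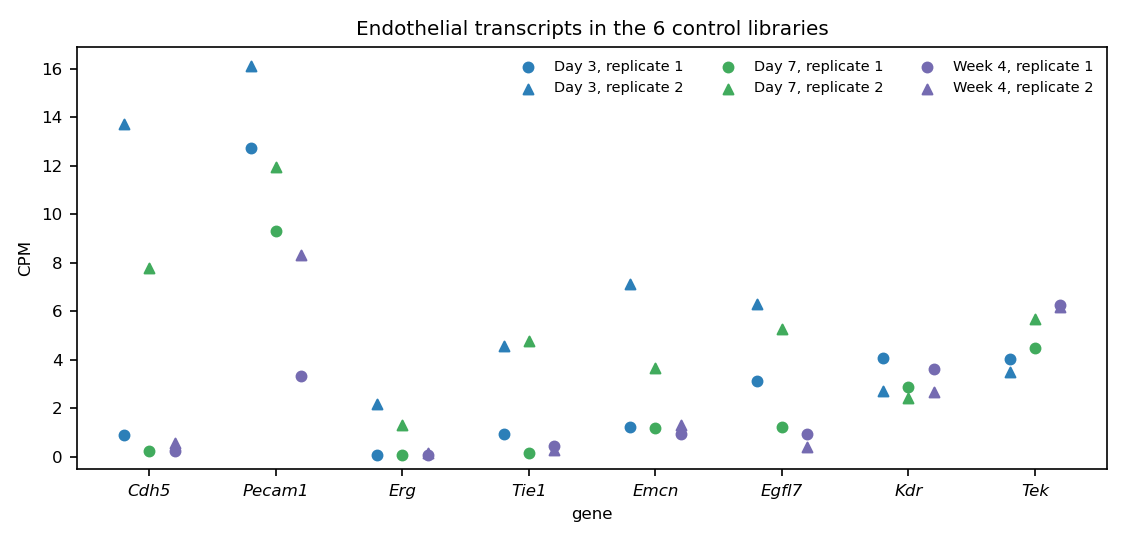
CPM of 8 endothelial genes in the 6 control libraries, with circles for replicate 1, triangles for replicate 2 and colours for the time. Cdh5, Erg, Tie1 and Emcn are high in replicate 2 at Day 3 and Day 7 alone, while Pecam1 declines in both replicates and Kdr and Tek do not.

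The endothelial core list of 45 genes held 5 members, Cdh5, Icam2, Myct1, Pecam1 and S1pr1. By the rule, 13 of its genes went down in control and 16 went up with Sox17-Erg, and at Day 7 15 of 40 tested were higher and 1 lower, with a median log2 fold change of 0.26. The arterial list of 32 genes held Notch1 alone, although 18 of its genes went up with Sox17-Erg and 19 were higher and 2 lower at Day 7. In control, 3 arterial genes went down. The venous and lymphatic list of 21 genes held no member, with 1 down in control and 8 up with Sox17-Erg. At Day 7, 4 of its 17 genes tested were higher and 3 lower, with a median log2 fold change of -0.34. The hemostasis list of 17 held Entpd1, with 3 higher and 6 lower at Day 7.

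Of the 21793 protein-coding genes 67 were members, and members were also counted in the pathway lists. The VEGF and angiopoietin list of 21 genes held Pgf, the list of 50 small GTPase regulators held Prex1, the list of 63 guidance cues and receptors held Ephb3, Plxnd1 and Sema6a, and the list of 66 G protein-coupled receptor and RGS genes held S1pr1 and Ramp1. At Day 7, 6 of 19 tested in the first were higher and 3 lower, 14 of 47 and 4 in the second, 16 of 60 and 8 in the third, and 17 of 60 and 6 in the fourth. The 40 cell cycle genes held none, since 38 went down in control and 0 went up with Sox17-Erg, nor did the 27 genes of cholesterol and fatty acid synthesis, where 16 went down and 0 went up. No member fell in the lists of interferon-stimulated genes, glycolysis, tight junctions, ion channels or neuronal genes.

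Markers of the other cells that a cardiac fibroblast culture can hold were summed in each library. The 23 macrophage genes held no member, and their sum went from 999.6 and 629 CPM at Day 3 to 185 and 796 at Week 4 in control and from 603 and 563 to 201 and 627 with Sox17-Erg. The control sum at Day 7 was 1629 and 2181, and 2 genes were lower there with Sox17-Erg. The 17 mesothelial genes summed to 1484 and 662 CPM at Day 3 in control and to 5787 and 5116 at Week 4, against 477 and 278 and later 809 and 724 with Sox17-Erg, so the mesothelial sum was higher at Week 4 in control while the members were lower. The 23 fibroblast genes summed to 36390.0 and 42515 CPM at Day 3 in control and to 35589.8 and 33552 at Week 4. With Sox17-Erg the fibroblast sum went from 28506 and 41528 to 14563 and 17736, although 12 of the 23 genes went up by the rule, among them Tcf21 (15.6 and 44.4 CPM and later 84.5 and 128) and Pdgfra (118 and 279 and later 322 and 362). That sum follows abundant genes such as Col1a1, at 12411 and 18321 CPM and later 4478 and 5507. The 28 cardiomyocyte genes summed to 1993 and 1242 CPM and later 1637 and 2028 in control, and to 850.5 and 705 and later 1176 and 1241 with Sox17-Erg. At Day 7, 9 of 16 mesothelial genes tested were lower with Sox17-Erg and 0 higher, and 12 of 23 fibroblast genes were lower and 3 higher. The 19 smooth muscle and pericyte genes, with the member Lmod1 among them, summed to 4650.1 and 4169 CPM at Day 3 in control, to 2244 and 1525 at Day 7 and to 1948 and 3684 at Week 4, lower after Day 3 as the members were. With Sox17-Erg that sum was 6038 and 5652, then 6044 and 3401, and by Week 4 5773 and 6314. The epithelial and megakaryocyte sums were also lower in control at Week 4, at 23.4 and 12.4 CPM after 64.4 and 33.9 and at 6.16 and 7.09 after 15.8 and 13.7. Lymphocyte, erythroid, megakaryocyte, adipocyte, epithelial and Schwann lists held no member. The part of these cells in the members' changes was not tested.

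The members lay on 19 chromosomes, with 1 to 7 on each and the 7 on chromosome 10. There were 5 neighbouring pairs within 1 Mb: Gpc1 and Kif1a on chromosome 1, 154685 bases apart, Icam2 and Pecam1 on chromosome 11 (266142), Anxa8 and Sncg on chromosome 14 (269703), Tm6sf1 and Adamtsl3 on chromosome 7 (451260), and Cdh5 and Bean1 on chromosome 8 (25931). Icam2 and Pecam1 were both above control at each time and called at Day 7, and Anxa8 and Sncg were both below control at Day 3, overlapping at Day 7 and above at Week 4. The other 3 pairs differed in position at Day 3, as where Cdh5 was above control at Day 3 and called at Day 7, whereas Bean1, which encodes an interactor of a NEDD4 ubiquitin ligase, was below control at Day 3 with a Day 7 log2 fold change of 0.00. The median exon length of the members was 5749 bases, next to 4490 over the protein-coding genes tested.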

How the data were processed

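RNA was extracted with TRIzol and made into Kapa stranded mRNA libraries (2 groups of cells, 3 times, 2 libraries each), sequenced as paired reads of 50 bases. Per the labels and methods, reads were demultiplexed with bcl2fastq 2.20.0, trimmed with BBDuk and quantified with Salmon (version not given in the sources used here) on mm10. The authors deposited estimated counts per gene, already whole numbers, with no normalization; their annotation release was not given in the sources used here. Genes were named and typed with GENCODE M21 on GRCm38, which matched 35493 of 35727 rows. CPM and L used the column total, 19011635 to 41240449.

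The members and the gene lists were chosen with earlier results of these data known. Grouping by role was done after values were seen. Day 7 was tested with edgeR 4.0.16 (quasi-likelihood, TMM, filterByExpr with a minimum count of 10 and total of 15, 1 mean per group, 6 residual degrees of freedom) in R 4.3.3, with Benjamini-Hochberg adjustment over 15506 genes and a threshold of 0.05. The fit was also run on simulated data as a check of the computation, and no result here rests on it. Genes named were members on endothelial or cell type lists, the 10 with the widest difference between the arms' changes, the 10 most abundant, the 5 highest and 5 lowest Day 7 fold changes, those at the thresholds, and Sox17 and Erg. Others are named to describe their role group and were chosen after their values were seen. An exact permutation test of 2 against 2 libraries cannot go below p = 0.333, so none was run on single genes. Alternatives were DESeq2 1.42.0, other size factors, no filter, a replicate block, the Day 7 libraries alone, other thresholds and leaving out each library.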

Additional observations from a re-analysis of the deposited data

How the results depend on the processing

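The number of members followed the cut: a change of 0.5 gave 143 genes and a change of 1 gave 24. Other scalings gave 60 (TMM), all of them among the 67, and 66 (DESeq2 size factors). Adding 0.5 to CPM in place of 1 gave 91 members with the 67 among them, adding 2 gave 45, all among the 67, and leaving out 1 library gave 65 to 91. The Day 7 count of members higher with Sox17-Erg was 43, and 36 in the Day 7 libraries alone, 49 by DESeq2, 52 with no filter on low counts, 42 with DESeq2 size factors and 34 to 45 without 1 library. The count lower was 0 and ranged from 0 to 1 without 1 library, the 1 being Abcg1 without Sox17-Erg Day 7 replicate 2. The median log2 fold change of the members ran from 1.35 to 1.69 without 1 library, the lowest without Sox17-Erg Day 7 replicate 1. Sync ran from -0.37 to 0.13 without 1 library, turning from -0.09 to 0.01 and 0.13 without control Day 7 replicate 1 and Sox17-Erg Day 7 replicate 1. The cause of these moves was not tested. The labels give replicate numbers but do not pair cultures. Same-numbered libraries of the 2 arms deviated together from their group means with r = 0.19 at Day 3, 0.30 at Day 7 and 0.17 at Week 4 across genes, while same-numbered libraries of different times gave values from -0.14 to 0.22. With the replicate block 43 members were higher, 42 of them called without it (Lama5 gained, Kif1a lost), and 0 lower. Of 527 alternative Day 7 values of named genes, 484 kept their direction and side of the threshold.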

Other observations

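Applied to every row of the table and not only to protein-coding genes, the same cuts gave 68 rows. The added row was Hsp25-ps1, a processed pseudogene on chromosome 13 named for a small heat shock protein. Its control libraries held 268 and 444 counts at Day 3, then 0 and 52 at Day 7 and 0 in both at Week 4. Its Sox17-Erg libraries held 66 and 0, 0 and 285, and 1084 and 179 counts at the same times. In several groups 1 replicate was at 0 and the other was not, so the row is given by its counts alone, with no fold.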
